A study of Zea mays with 2 samples.

Results

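Of the cytokinin genes on the array, those of histidine kinase receptors, phosphotransfer proteins, cytokinin oxidases and a zeatin O-glucosyltransferase are described here in stems of maize. The members were chosen by name, as genes called HK, HP, CKX, CKO, IPT or cisZOG followed by a number. Hexokinases and response regulators were left out, and the response regulators are described below as a separate list. The name search found 11 probe sets of 10 genes among the 1452 probe sets paired with 1 gene, on an array with 17621 maize probe sets. The RefSeq gene table names 20 maize genes in this way. It holds 3 HK and 3 HP genes, all of which had a probe set here. Of its 9 cytokinin oxidase genes 3 were measured, and of its 2 cisZOG genes 1 was. None of its 3 IPT genes, for the isopentenyltransferases that start cytokinin synthesis, was paired with a probe set, so cytokinin synthesis could not be described.

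Total RNA came from stem tissue at tassel emergence, from the dominant dwarf mutant D11 and from its wild type (WT), the inbred line Mo17, with no treatment. The D11 mutant was found among the F1 plants of Mo17 and the line HN06 and was kept by backcrossing to inbred lines. The sources used here do not state the backcross generation or nuclear background of the D11 plants hybridized, nor how many plants gave each RNA sample. There was 1 array per genotype, so no test was made and no error or p-value can be given. A difference between D11 and WT is a difference between these 2 arrays, and their number limits the precision.

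Cytokinins are adenine-derived hormones that promote cell division and shoot growth. They are sensed by membrane histidine kinases, which pass a phosphate group to histidine phosphotransfer proteins and from there to response regulators in the nucleus. Type-B response regulators are transcription factors, whereas type-A response regulators lack that output domain, are quickly induced by cytokinin and dampen the signal. Cytokinin oxidases cut off the side chain of the hormone for good, and O-glucosylation stores it in an inactive form. In maize, cytokinin signaling acts in the shoot meristem and sets leaf arrangement through the type-A gene RR3, also known as abph1.

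Values are intensities, calculated by the authors with MAS 5.0 and scaled within each array before deposit. The ratio is always the D11 signal over the WT signal, and its log2 is positive where D11 was higher. The 23 Tag and TrpnX control probe sets, designed against no transcript of maize, had highest values of 24.7 (D11) and 27.6 (WT). A signal no higher than that is called control level here. A fold against it is given as a lower bound, taken against the highest control of the array in which the signal was at control level. The 63 probe sets for spike transcripts, which are added in equal amount to every sample, differed by at most 1.38-fold. They measure handling of the arrays and not the spread between plants. The median log2 ratio was 0.03 over all maize probe sets and 0.06 over the 12462 above control level in both arrays. Near-equal signal was seen for kn1, a marker of shoot meristem (1762 in D11 and 1664 in WT), while lg3 had 788 and 303. In the stem wall list 3 of 3 probe sets were above control level and higher in D11, with a median log2 ratio of 0.60. Their sums, 8997 (D11) and 7312 (WT), came mostly from cad, at 7010 (D11) and 6585 (WT). The gene CCR rose further, from 428 (WT) to 1534 (D11), and ccr2 from 299 (WT) to 453 (D11). Of the photosynthetic leaf list 8 of 10 were above control level in both, with 13109 and 13185, sums carried mostly by Cab-m7 and rbcS. The 10 probe sets cover 5 genes, since PPDK has several. One gene, pdlk1, was matched only through its other name PDK1, a name PPDK also carries. In this list 8 of 10 had the lower value in D11, with a median log2 ratio of -0.49. At least 2-fold lower were 3, namely pep1 and 2 probe sets of PPDK, beside 9.83% of all maize probe sets. Of these 3, only 1 PPDK probe set was above control level in both arrays. The pep1 signal was 13.4 in D11, at control level, and 47.5 in WT. Of the kernel list 4 of 12 were above control level in both, with sums of 3453 and 3713. Of the zeins, 1 probe set of gz27 was well above it (1245 in D11 and 685.5 in WT), and the others lay at control level in both. Of the pollen and anther list 2 of 6 were above it in both, with 579 and 580, most of it from mez1, mez2 and mez3, which are not specific to pollen. The profilin genes prf1 and prf3 had 15.1 and 21.9 in D11, at control level, against 47.0 and 47.2 in WT, and prf2 was at control level in both stems. The housekeeping list found only GAPDH genes, of which 6 of 7 probe sets were lower in D11, with a median log2 ratio of -0.28. The quotient of 3′ over 5′ signal of control transcripts, a sign of RNA integrity, was smaller in D11 in 5 of 6 pairs above control level and ranged from 1.34 to 4.88, against 1.84 to 3.94 in WT. The part of cell makeup or RNA quality in the ratios below was not tested. In stem RNA, fewer cells of a type and less RNA per cell cannot be told apart.

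None of the 11 probe sets was at least 5-fold higher or lower in D11. Over all maize probe sets, 2.26% were at least 5-fold higher and 2.57% at least 5-fold lower. At 2-fold none was higher and 2 were lower, against 9.93% and 9.83% of all probe sets. Both of these belong to CKO3 and had a D11 signal at control level. The median log2 ratio of the 11 was -0.20, which is the value of cisZOG1, at control level in both arrays. Of the 11, 7 were above control level in both arrays, 2 in WT alone and 2 in neither. These groups follow the roles, since all receptor and phosphotransfer probe sets were measured in both stems, and of the 5 for breakdown and conjugation only that of CKO2 was. Over the 7 the median log2 ratio was 0.30, which is the value of HK3, and 5 were higher and 2 lower in D11. Of the 12462 maize probe sets above control level in both arrays, 6850 were higher and 5612 lower.

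**Figure D1:**
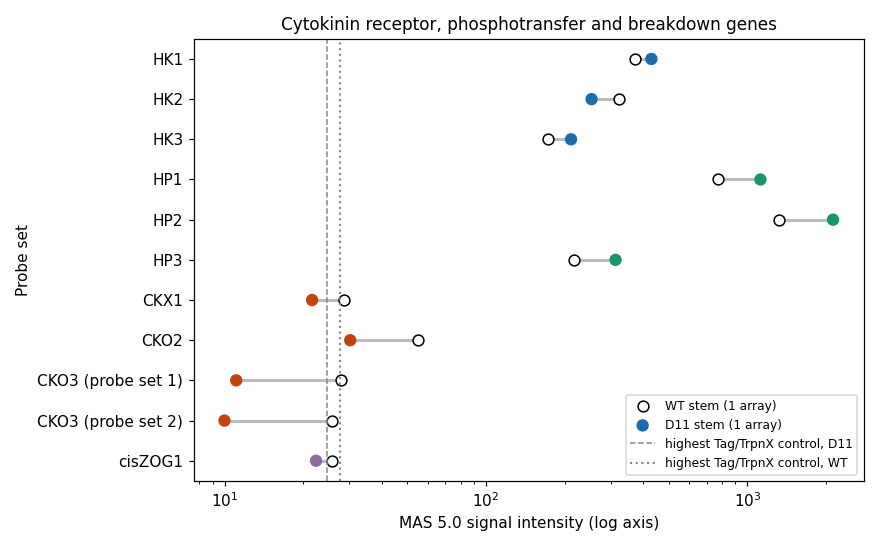
MAS 5.0 signal (log axis) of the 11 probe sets in the WT stem (open points) and the D11 stem (filled points, coloured by role), 1 array each, with the highest Tag or TrpnX control of each array as a vertical line. HP1, HP2 and HP3 lie to the right in D11, and CKX1, CKO3 and cisZOG1 lie at or close to the control lines.

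The 3 receptor genes had nearly the same signal in both stems. HK1 (LOC541634, GRMZM2G151223) was measured at 430 in D11 against 372 in WT, a ratio of 1.15. HK3 (LOC541642, GRMZM2G158252) gave 212 against 172, a ratio of 1.23. HK2 (LOC541641, GRMZM2G471529) went the other way, with 254 in D11 and 322 in WT, 1.27-fold lower in D11. All 3 differences are smaller than the largest difference of a spike control, 1.38-fold. Among the 12462 probe sets above control level in both arrays, the ratios stood at percentile 62.1 for HK1, 68.8 for HK3 and 20.4 for HK2, well inside the bulk of the array. The ratio of HK1 depends on the scaling, as its log2 of 0.21 went to 0.00 when both arrays were centred on their medians. That centring lowers every log2 ratio alike and took the median of all maize probe sets from 0.03 to -0.18. The probe set of HK3 is of a type that can bind several transcripts of a gene, so its signal may sum more than 1 transcript of HK3.

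The phosphotransfer genes, whose proteins carry the phosphate from receptor to response regulator, were higher in D11 as a group of 3. HP2 (LOC541625, GRMZM2G014154) was measured at 2129 in D11 against 1324 in WT and was 1.61-fold higher. HP1 (LOC542586, GRMZM2G016439) had 1123 in D11 and 774 in WT, 1.45-fold higher. HP3 (LOC542596, GRMZM2G451604) had 313 in D11 and 216 in WT, also 1.45-fold higher. The 3 log2 ratios lay between 0.53 and 0.68, a spread of 0.15 between the genes, and each was past the largest spike difference of 0.46. Of all maize probe sets above control level in both arrays, 21.1% were higher in D11 by at least that difference and 14.9% lower. Ratios of this size were therefore common on the array, and those of HP1, HP2 and HP3 stood at percentiles 82.3, 87.7 and 82.1. Centring on the median lowered HP1 and HP3 to 0.33 and HP2 to 0.48. It lowers every log2 ratio by the same amount, those of the spike controls included. The place of these genes among the other probe sets is therefore unchanged.

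**Figure D2:**
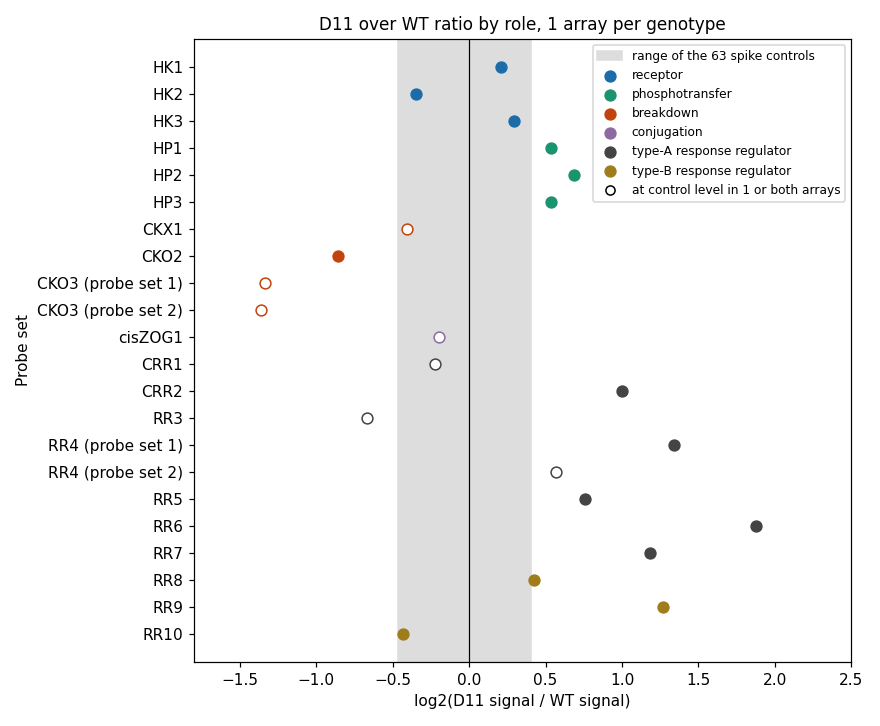
Log2 of the D11 over the WT signal for the 11 probe sets and for 11 probe sets of response regulators, coloured by role, with the range of the 63 spike controls as a grey band. Filled points were above control level in both arrays. The receptors lie inside the band, the phosphotransfer genes to its right and RR6 furthest right at 1.88.

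The cytokinin oxidase genes gave weak signals in both stems, and 1 of the 4 probe sets allows a ratio. CKO2 (LOC542507, GRMZM2G050997) was measured at 30.3 in D11 against 54.8 in WT, 1.81-fold lower in D11, at percentile 5.19. Its D11 signal was 1.23 times the highest control and its WT signal 1.99 times. The difference is past the largest spike difference, but the spike controls do not show the spread of signals this weak. With 24.7 added to every signal the log2 ratio of -0.86 became -0.53, and with quantile normalization it was -1.04.

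CKX1 (LOC542585, GRMZM2G146644), the first cytokinin oxidase gene cloned in maize, had 21.6 in D11 and 28.7 in WT. The D11 signal was at control level, and the WT signal only 1.04 times the highest control of its own array. Set against the highest D11 control, 24.7, the bound is at least 1.16-fold lower in D11. The highest WT control, 27.6, was itself above that value. Most of this bound is therefore the gap between the 2 controls, and no direction is read from it. CKO3 (LOC542056, GRMZM2G167220) had 2 probe sets made from the same transcript. The probe set specific to it had 11.1 in D11 and 28.0 in WT, the latter 1.01 times the highest WT control. Its bound of at least 1.13-fold lower in D11 is likewise mostly the gap between the 2 controls. The other, which can also bind related transcripts, had 10.0 and 25.7, at control level in both, so no fold is given. The probe sets of CKO3 share a target and are not independent. All 4 oxidase probe sets had the lower number in D11, and 3 of these differences rest on signals at control level in at least 1 array. Over all 17621 maize probe sets, 8446 were lower in D11.

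The gene cisZOG1 (LOC541881, GRMZM2G168474), for an enzyme that adds glucose to cis-zeatin, had 22.4 in D11 and 25.7 in WT. Both signals were at control level, so neither a level nor a fold is given. A further probe set outside the name search, annotated as cytokinin-O-glucosyltransferase 2 (GRMZM2G041699), was looked at because its ratio on these arrays was known. It gave 142 in D11 against 19.6 in WT, at least 5.14-fold higher in D11 against the control level. Such a name is given to many glucosyltransferases by likeness of sequence, and the ratio is a description of a probe set chosen for its size. With 24.7 added to every signal the ratio was 3.76.

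Response regulators, the next step after the phosphotransfer proteins, had 11 probe sets of 10 genes. This list was written with earlier results of these arrays known. Of the 11, 8 were above control level in both arrays, 1 in D11 alone and 2 in neither. At least 2-fold higher in D11 were 4, all of them above control level in both arrays, and none was at least 2-fold lower. Of all probe sets above control level in both, 6.2% were at least 2-fold higher and 3.95% at least 2-fold lower. The median log2 ratio was 0.76 over the 11 and 1.09 over the 8, beside 0.03 over all maize probe sets and 0.06 over those above control level in both. None reached 5-fold.

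Among type-A genes, RR6 (LOC541632, GRMZM2G129954) had the largest ratio of the list. It stood at 505 in D11 against 137 in WT, 3.67-fold higher and at percentile 98.6 of the probe sets above control level in both. RR7 (LOC541633, GRMZM2G096171) had 175 in D11 and 77.1 in WT, 2.27-fold higher. CRR2 (LOC541624, GRMZM2G392101) had 339 and 170, 1.997-fold higher, just under 2-fold. RR5, named by the array's annotation under a gene ID not found in the RefSeq table, had 776 and 458, 1.69-fold higher. These genes and RR4 make up the 5 type-A probe sets above control level in both arrays. All 5 were higher in D11 by more than the largest spike difference. Of all maize probe sets above control level in both, 21.1% were higher by at least that difference.

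RR4 (LOC541630, GRMZM2G319187) had 2 probe sets, of which 1 allows a ratio. The first had 86.9 in D11 and 34.3 in WT, 2.54-fold higher, with a WT signal 1.24 times the highest control. The second had 35.3 in D11 and 23.9 in WT, the latter at control level, a bound of at least 1.28-fold higher. As the second gives only a lower bound, it cannot be said whether the 2 probe sets differ in size of ratio. RR3 (LOC541629, GRMZM2G035688), known as abph1, had 10.1 and 16.1, and CRR1 (LOC541613, GRMZM2G040736) had 23.6 and 27.5. Both genes were at control level in both stems, so no fold is given for them.

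**Figure D3:**
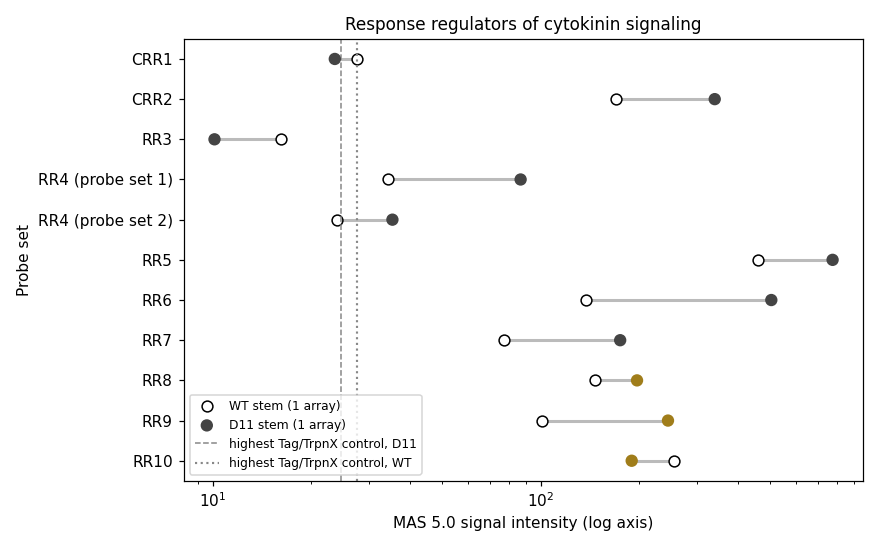
MAS 5.0 signal (log axis) of 11 probe sets of response regulators in the WT stem (open points) and the D11 stem (filled points, type-A dark grey and type-B ochre), 1 array each, with the highest Tag or TrpnX control of each array as a vertical line. RR6 has the widest gap, from 137 in WT to 505 in D11, and RR10 alone of the probe sets above control level in both arrays lies lower in D11.

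The type-B genes, for the transcription factors that act on cytokinin targets, did not move as 1 group. RR9 (LOC541638, GRMZM2G060485) was measured at 244 in D11 against 101 in WT, 2.41-fold higher. RR8 (LOC541636, GRMZM2G099797) gave 197 against 147, a ratio of 1.34, under the largest spike difference. RR10 (LOC541639, GRMZM2G126834) had 189 and 255, 1.35-fold lower in D11 and likewise under that difference. The difference between type A and type B was not tested.

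**Figure D4:**
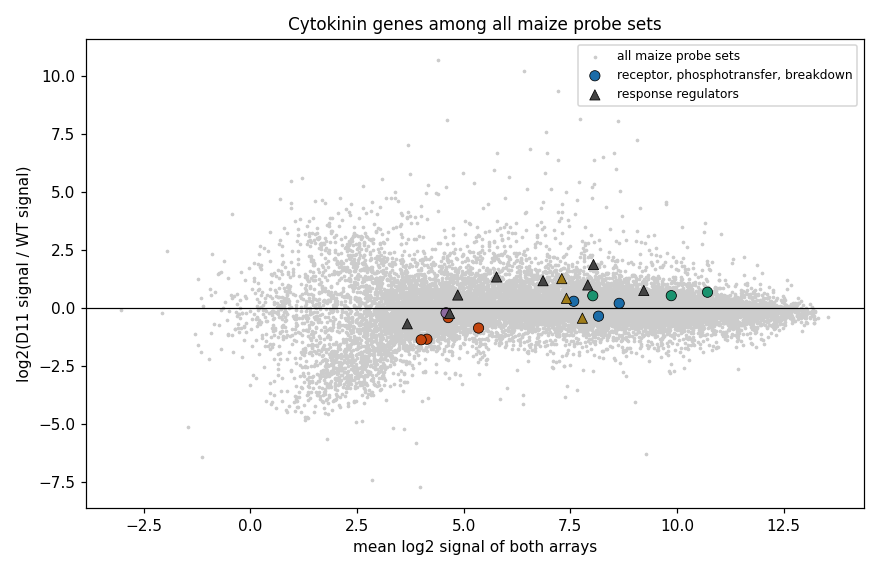
Log2 of the D11 over the WT signal against the mean log2 signal of both arrays for the 17621 maize probe sets (grey), with the 11 receptor, phosphotransfer, breakdown and conjugation probe sets as circles and the 11 response regulators as triangles, coloured by role as in the plot of ratios by role. The cloud widens towards weak signals, where the probe sets of CKX1, CKO3, cisZOG1, CRR1 and RR3 lie.

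The ethylene list, whose receptors are also histidine kinase-like proteins, had 4 probe sets. None of them was 2-fold higher or lower, beside 9.93% and 9.83% of all maize probe sets. A list of 4 is too short to be set against these shares. In this list, ETR2 had 331 in D11 and 210 in WT, 1.58-fold higher, an ethylene receptor with a ratio like that of HP2. Its second probe set was barely above control level in D11 and at control level in WT. The genes of ACC oxidases, which make ethylene, had 361 and 352 for ACO20, and 90.1 and 146 for ACO31, 1.62-fold lower in D11.

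**Figure D5:**
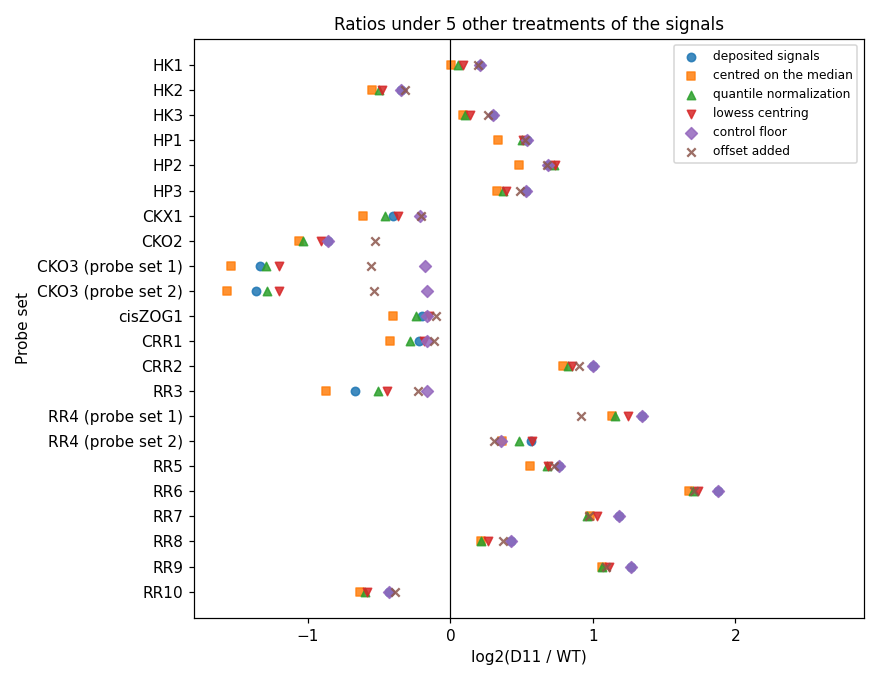
Log2 of the D11 over the WT ratio of the same 22 probe sets from the deposited signals and under 5 other treatments of the signals, each with its own marker. No probe set changes sign, but the control floor differs between the arrays. Under it, any probe set at control level in both takes -0.16, the log2 ratio of the 2 floors, so that sign is set by construction. HK1 comes to 0.00 with centring on the median, and both CKO3 probe sets move from beyond -1.3 to -0.18 and -0.16 once the control floor is applied.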

How the data were processed

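Linear MAS 5.0 intensities from the Affymetrix Maize Genome Array were used as deposited. To make them, the authors subtracted background, combined the probes of each probe set and scaled each array. Gene Spring is named for this in the paper's methods, MAS5 with Affymetrix Expression Console in the processing notes of the submitters. Detection calls were not used here. Of 17734 probe sets, 113 controls were set aside. Names came from the platform annotation and from RefSeq (Zm-B73-REFERENCE-NAM-5.0), whose coordinates were left aside. A single symbol was given for 1452 probe sets, and several for 1.

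The D11 signal was divided by the WT signal, with thresholds of 5-fold, as in the methods, and 2-fold. With 1 array per genotype no test was possible. The members and lists were chosen with earlier results of these data known. All members and response regulators are named. Of the companion lists, a search of gene descriptions for cytokinin terms was not run, since the tables used hold no descriptions. The 8 alternatives changed array scaling, weak signals (a floor at the highest control, 24.7 added to each value, which is percentile 25 over both arrays) or the choice of probe sets, with a lowess span of 0.3. Counting was tested on simulated data. Python 3.11.15, numpy 2.4.6, pandas 2.3.3, statsmodels 0.14.6 and matplotlib 3.10.9 were used.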

Additional observations from a re-analysis of the deposited data

How the results depend on the processing

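No paired analysis was possible because each genotype has 1 array, and no array could be left out. The counts of members at least 5-fold higher, 5-fold lower and 2-fold higher stayed at 0 under all 8 alternatives. Only the changes of array scaling could have raised them. Leaving out probe sets or averaging by gene cannot raise a count of 0, and the floor and the offset shrink large ratios. The 2 members at least 2-fold lower became 0 under the control floor, and again 0 when the offset was added. It was 3 with centring on the median and 3 with quantile normalization, where CKO2 also passed 2-fold, with log2 ratios of -1.06 and -1.04. That count was 1 without probe sets at control level in both arrays, 1 without shared probe sets and 1 with each gene counted once, by their construction. The median log2 ratio of the members, -0.20, was -0.41 with centring on the median, 0.21 without probe sets at control level in both arrays and 0.0027 with each gene counted once, so its sign depends on the weak probe sets. For the response regulators, the alternatives were added after seeing the data. The count at least 2-fold higher, 4, became 2 with the offset. It was 3 with centring on the median, with quantile normalization and with each gene counted once, and stayed at 4 under the others. The median of the response regulators was 0.56 with centring on the median and 0.998 without probe sets at control level in both arrays. Centring on the median moved the median log2 ratio of all maize probe sets by -0.20, to -0.18. The control floor moved it by -0.15.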

Other observations

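In the list of cyclins and cyclin-dependent kinases, genes that drive the cell cycle, the probe sets went both ways. The D-type cyclin gene cycD1 was measured at 33.8 in D11 against 95.3 in WT, 2.82-fold lower in D11. Its D11 signal was weak, at 1.37 times the highest control. The gene cycD2 had 1224 and 860, 1.42-fold higher. D-type cyclins act at the start of the cell cycle. The kinase gene cdc2 had 1317 and 1382 by its first probe set and 1182 and 1128 by the other. The mitotic cyclin genes cyc3, cyc2 and cyc1 were at control level in WT, with 65.9, 33.9 and 30.5 in D11, which gives bounds of at least 2.38-fold, 1.23-fold and 1.10-fold higher. Of the 7 probe sets, 4 were above control level in both arrays, with a median log2 ratio of 0.00 (-0.00072).

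Among the knotted-like homeobox genes, transcription factors of the shoot meristem, lg3 had 788 in D11 and 303 in WT, 2.60-fold higher. The gene lg4b had 59.7 in D11 and a WT signal at control level, at least 2.16-fold higher. The genes kn1 (1762 and 1664) and knox7 (454 and 488) had ratios of 1.06 and 0.931.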
